A study of Homo sapiens with 6 samples.

Results

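The ubiquitin-specific proteases, symbols USP followed by a number, were examined in SNU-449, an established human hepatocellular carcinoma cell line, on 6 Affymetrix expression arrays. Members were chosen by their symbol in the platform annotation and not by their values: a probe set belonged to the family where it named exactly 1 such gene. This gave 131 probe sets of 46 genes, out of 19775 genes with a probe set of their own. Of the 46 genes, 35 had several probe sets and 11 had 1.

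The first group, called USP48 here, comprised 3 arrays of cells whose genotype label reads USP48 OE, where OE commonly stands for overexpression. The second, called vector, comprised 3 arrays of cells whose genotype label reads Ctrl and whose titles name a vector. Throughout, "USP48 arrays" stands for the arrays labelled so. The protocol text, the same on all 6 arrays, describes transduction with a USP48 lentivirus and puromycin selection of stable cells, and does not mention a vector virus, whereas the sample titles speak of transfection. It does not say what the insert contained or whether the stable cells were 1 clone or a pool. Nothing states that replicates were separate cultures. The p-values therefore reflect the scatter among these arrays, which may be technical.

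Ubiquitin-specific proteases are cysteine proteases that remove ubiquitin from proteins or trim ubiquitin chains, and so oppose the ubiquitin ligases. They form the largest family of human deubiquitinases, and many act as parts of complexes, among them chromatin coactivators, the proteasome and the machinery of endosomes. USP48 itself is known to act on RELA, a subunit of NF-κB, and USP18 is the exception of the family in that it removes the ubiquitin-like protein ISG15.

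Values are log2 RMA values, the deposited scale, in which a difference of 1 is a 2-fold change of the measured signal. Differences are USP48 minus vector. A probe set was called where limma's adjusted p over all 54613 non-control probe sets was under 0.05 (two-sided, Benjamini-Hochberg). The array medians lay between 3.75 and 3.79, and no fold is given for probe sets near or below them, because detection against background was not analysed here. The mean of the 18 hybridization control probe sets was 10.09 ± 0.10 in the USP48 arrays and 9.79 ± 0.04 in the vector arrays (SD, n = 3 each). Scaling the arrays on these controls lowered every difference by 0.29, and moved the median difference of all probe sets to -0.26, against 0.03 as deposited. The GAPDH 5′ minus 3′ probe set difference, a measure of RNA integrity, was -0.51, -0.45 and -1.31 in USP48 replicates 1, 2 and 3, against -0.32, -0.37 and -0.44 in vector replicates 1, 2 and 3, so USP48 replicate 3 stood apart on it. The ACTB 5′ minus 3′ difference was far below 0 on all 6 arrays. It was -3.88, -3.44 and -4.14 in USP48 replicates 1, 2 and 3, against -3.26, -3.42 and -3.70 in vector replicates 1, 2 and 3. The groups overlapped there, and USP48 replicate 3 was the lowest but less set apart. Among markers of the labelled cell type, ALB averaged 2.14 in the USP48 arrays and 2.07 in the vector arrays, below every array median. APOA1 (3.05 and 3.06) and SERPINA1 (3.64 and 3.41) were also below the medians. AFP (3.96 and 3.75) was near them, and TTR (5.31 and 5.11) and TF (4.33 and 4.30) were above. The keratins KRT8 (10.57 and 10.88) and KRT18 (11.80 and 11.79) and the mesenchymal filament VIM (11.15 and 11.57) were well above the medians. The keratin KRT19 (2.81 and 2.81) and the mesenchymal marker SPARC (1.99 and 1.70) were below them. VIM was itself called lower (limma adjusted p = 0.011). The adhesion genes EPCAM (6.28 and 6.69), CDH1 (2.57 and 2.95, below the array medians) and CDH2 (7.48 and 8.14) were also called lower (limma adjusted p = 0.014, 0.025 and 0.0016). FN1, a matrix protein, was called higher, with 10.26 in the USP48 arrays and 8.78 in the vector arrays (limma adjusted p = 0.00084). Of the 5 epithelial markers measured 0 rose and 2 fell, and of the 4 mesenchymal markers 1 rose and 2 fell. Of all genes 14% were called higher and 13.2% lower by the brightest probe set. The part of these markers in the USP differences was not tested. The EPCAM call was lost without vector replicate 1, and the CDH1 call without vector replicate 1 or 2 or USP48 replicate 1. The 6 hepatocyte markers measured averaged 3.71 to 3.78 per USP48 array and 3.54 to 3.71 per vector array, and 0 were called on the brightest probe set. The dim TF probe set 203400_s_at was called higher, at 0.39 (limma adjusted p = 0.047), but not after scaling on the hybridization controls (0.09, limma adjusted p = 0.62). The 4 leukocyte markers measured averaged 2.87 to 3.07 per USP48 array and 2.81 to 2.91 per vector array, and 0 were called as deposited.

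USP transcripts changed in both directions, and more probe sets fell than rose in the USP48 arrays. Of the 131 probe sets, 37 fell (28.2%) and 14 rose (10.7%), against a background of 13.8% of all non-control probe sets lower and 10.6% higher. In either direction 51 were called (38.9%, against 24.3% of all). The share that fell was above the background and the share that rose was near it. The USP48 arrays lay entirely below the vector arrays for 45 probe sets (34.4%, against 19.4% of all) and entirely above them for 23 (17.6%, against 18.8%). In bulk RNA, fewer cells expressing a gene and less RNA per cell cannot be told apart. After scaling on the hybridization controls the split was 74 lower and 5 higher, against a background of 39.0% lower and 3.34% higher; the 37 that fell as deposited were all called lower there too. The 5 called higher after that scaling were probe sets of USP18, USP53, USP36, USP30 and USP42. The median difference was -0.07 over the USP probe sets and 0.03 over all probe sets, and after scaling on the hybridization controls -0.36 and -0.26. Among probe sets whose mean lay above every array median, 32 of 94 USP probe sets fell, against 21.2% of all such probe sets, and 13 rose, against 16.4%. Changes of at least 2-fold were called lower for 8 USP probe sets (6.11%, against 2.32%) and higher for 2, those of USP18 and USP53 (1.53%, against 1.24%).

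**Figure D1:**
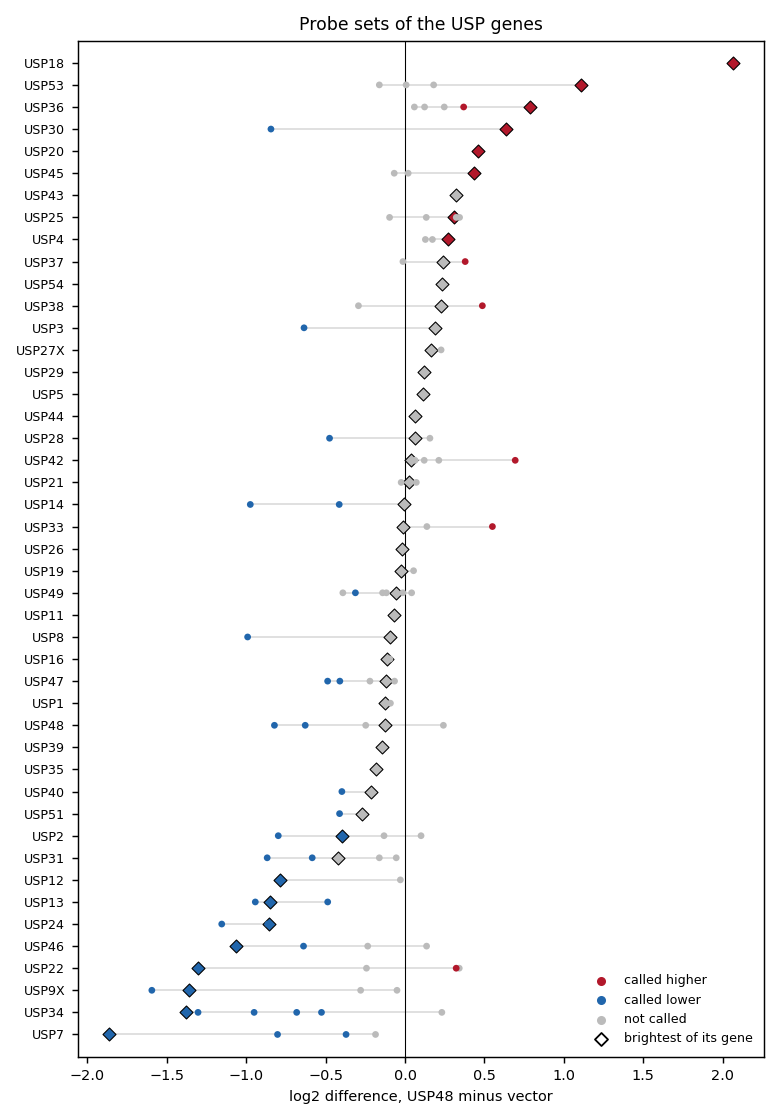
Log2 difference (x axis, USP48 minus vector, log2 units) of each probe set of 45 USP genes (1 row per gene, ordered by the brightest probe set), coloured by call, with a diamond for the brightest probe set of the gene; USP9Y, which is Y-linked, enters the counts only. USP18 lies highest at 2.07 and USP7 lowest at -1.86, and many rows spread over both called and uncalled probe sets.

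USP48, the gene named by the labels, was not called higher by any of its 5 probe sets. Probe set 220079_s_at read 7.19, 6.94 and 7.05 in USP48 replicates 1 to 3, against 7.88, 7.83 and 7.94 in vector replicates 1 to 3. Every USP48 array was below every vector array. Probe set 220078_at read 4.20, 4.37 and 4.45 in the USP48 arrays, against 5.02, 4.99 and 4.89 in the vector arrays, again without overlap. These were log2 differences of -0.82 (SE 0.10, limma adjusted p = 0.00013) and -0.63 (SE 0.10, limma adjusted p = 0.00085). The brightest probe set, 225925_s_at, read 7.90, 7.85 and 8.03 in the USP48 arrays, against 8.11, 8.04 and 8.0 in the vector arrays, so the groups overlapped (difference -0.13, limma adjusted p = 0.37). Probe set 229812_at read 6.25, 6.14 and 6.28 in the USP48 arrays and 6.15, 5.92 and 5.87 in the vector arrays. Its difference of 0.24 did not pass (limma adjusted p = 0.12), except after quantile normalization (0.30, limma adjusted p = 0.041), and was -0.05 after scaling on the hybridization controls. Probe set 232621_at, below the array medians, read 2.10, 1.92 and 1.95 in the USP48 arrays and 2.0, 2.18 and 2.53 in the vector arrays (difference -0.25, limma adjusted p = 0.22). After scaling on the hybridization controls 225925_s_at and 232621_at were called lower as well, at -0.42 and -0.54 (limma adjusted p = 0.0073 and 0.0089).

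**Figure D2:**
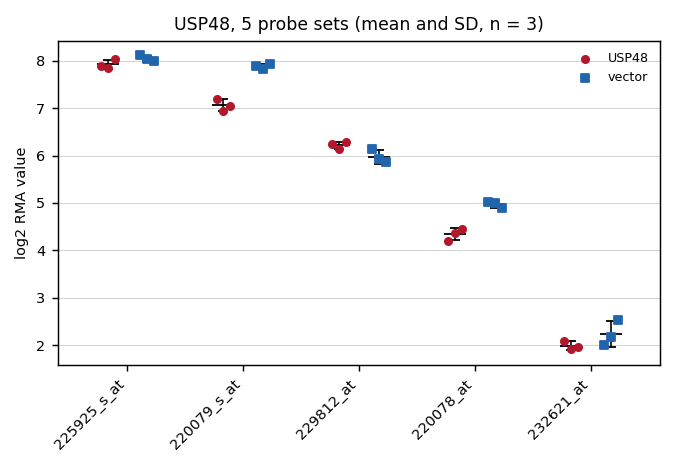
Log2 RMA values (y axis) of the 5 USP48 probe sets (x axis) in the 3 USP48 arrays (circles) and the 3 vector arrays (squares), with the mean and SD of each group. The groups separate for 220079_s_at and 220078_at, where the USP48 arrays are lower, and overlap for the other probe sets.

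The probe sets of USP48 did not move by equal amounts. This was tested on the difference between each further probe set of a gene and its brightest one within an array, fitted with limma over 21316 such differences of all genes. Relative to 225925_s_at, 220079_s_at fell by 0.69 (SE 0.12, limma adjusted p = 0.0017) and 220078_at fell by 0.50 (SE 0.11, limma adjusted p = 0.0071), while 229812_at rose by 0.37 (SE 0.11, limma adjusted p = 0.032). The last of these was not called without vector replicate 2 (adjusted p = 0.11), vector replicate 3 (adjusted p = 0.099), USP48 replicate 1 (adjusted p = 0.086) or USP48 replicate 2 (adjusted p = 0.061). Which part of the transcript each probe set reads, and whether any of them lies in the transferred sequence, was not analysed here. The arrays are therefore named by their labels in every comparison.

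The brightest probe set of a gene, by its mean over all 6 arrays, was called lower for 9 USP genes (19.6%, against 13.2% of all genes) and higher for 8 (17.4%, against 14% of all genes). All 9 and all 8 had groups that did not overlap, as had all 51 called USP probe sets. The calls were made on the same values, so this is not separate support. The 9 were USP7, USP34, USP9X, USP22, USP46, USP24, USP13, USP12 and USP2, and each was also called lower with any 1 of the 6 arrays left out.

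USP7, which deubiquitinates p53 and its ligase MDM2, had the largest decrease of the family. Its brightest probe set read 6.41, 6.27 and 6.90 in USP48 replicates 1, 2 and 3, against 8.47, 8.32 and 8.39 in vector replicates 1, 2 and 3. The difference was -1.86 (SE 0.15, limma adjusted p = 1.0e-05), a 3.64-fold lower signal. All 3 USP48 arrays were low, with replicate 3 the least so. A further USP7 probe set, 201499_s_at, read 6.92, 6.96 and 7.27 in the USP48 arrays, against 7.84, 7.83 and 7.89 in the vector arrays, and fell by 0.80 (limma adjusted p = 0.00033). The dim probe sets 222032_s_at and 230967_s_at were at -0.37 and -0.19, and the first of these was not called with vector replicate 1 or 3 or USP48 replicate 1 or 3 left out. USP2, which also acts on MDM2, fell by 0.40 on its brightest probe set, with 4.67, 4.81 and 4.8 in the USP48 arrays and 5.11, 5.14 and 5.23 in the vector arrays (limma adjusted p = 0.0085). The USP2 probe set 207213_s_at fell by 0.80 (limma adjusted p = 0.00080), and 207211_at and 230965_at were at 0.10 and -0.13.

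USP9X, an X-linked member, fell on both of its bright probe sets. The brightest read 8.08, 8.10 and 8.37 in the USP48 arrays, against 9.53, 9.54 and 9.55 in the vector arrays. The vector arrays were nearly equal and every USP48 array was at least 1 log2 unit below them. The difference was -1.36 (SE 0.10, limma adjusted p = 8.1e-06), 2.57-fold lower, and 201099_at fell by 1.59 (limma adjusted p = 3.2e-05), 3.02-fold lower. Its dim probe sets 230543_at and 229573_at were at -0.05 and -0.28 and were not called. USP24, another large member, fell on 3 of 3 probe sets, by 0.86, 1.15 and 0.86 (limma adjusted p = 0.00063, 0.00032 and 0.00018). Its brightest probe set read 4.93, 4.67 and 5.2 in the USP48 arrays, against 5.82, 5.72 and 5.83 in the vector arrays.

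USP34, which acts on axin in the Wnt pathway, fell on 5 of its 6 probe sets. The brightest read 6.85, 6.64 and 7.29 in the USP48 arrays, against 8.30, 8.29 and 8.32 in the vector arrays, a difference of -1.38 (SE 0.14, limma adjusted p = 6.0e-05), 2.60-fold lower. The other 4 that fell lay between -1.30 and -0.53. Of these, 212065_s_at, 215013_s_at and 233595_at averaged 3.44, 3.73 and 2.82 in the USP48 arrays, below the array medians. The dim 242647_at was at 0.23, where the USP48 arrays were the higher ones (limma adjusted p = 0.13). USP22, the H2B deubiquitinase of the SAGA coactivator, read 7.09, 7.47 and 7.49 in the USP48 arrays, against 8.57, 8.77 and 8.63 in the vector arrays. It fell by 1.31 (SE 0.12, limma adjusted p = 2.9e-05), 2.47-fold lower. Its 3 other probe sets had means over all 6 arrays below the array medians. One of these, 220861_at, was called higher at 0.32 (limma adjusted p = 0.029), but not with vector replicate 1 or 2 or USP48 replicate 1 or 2 left out or when scaled on the hybridization controls (0.03, adjusted p = 0.86).

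USP12 and USP46 are close paralogs that need the subunit WDR48 for activity, as does USP1. USP46 read 4.12, 4.23 and 4.47 in the USP48 arrays, against 5.44, 5.34 and 5.22 in the vector arrays, and fell by 1.06 (SE 0.11, limma adjusted p = 6.3e-05). USP12 read 5.34, 4.92 and 5.57 in the USP48 arrays, against 6.30, 5.83 and 6.06 in the vector arrays, and fell by 0.79 (SE 0.17, limma adjusted p = 0.0054). The USP12 groups were separated by a smaller gap than those of USP46. The other USP12 probe set, 215886_x_at, was at -0.03 and was not called. A further USP46 probe set, 203870_at, fell by 0.64 (limma adjusted p = 0.00043). The USP46 probe sets 219943_s_at and 222941_at were at 0.14 and -0.24 and were not called. USP1, which acts on FANCD2 in DNA repair, was not called, at -0.12 and -0.09, though its brightest probe set had every USP48 array (10.03, 10.02 and 10.06) below every vector array (10.14, 10.18 and 10.16). The shared subunit WDR48 was not called on its brightest probe set (0.18, limma adjusted p = 0.19), but 222157_s_at, 1 of its 4 probe sets, was called higher at 0.79 (limma adjusted p = 0.00027). WDR20, a further subunit of the USP12 and USP46 complexes, was at -0.05 on its brightest probe set (limma adjusted p = 0.76) and was called higher on 227541_at, 1 of its 3, at 0.63 (limma adjusted p = 0.00081). When scaled on the hybridization controls the brightest WDR20 probe set was called lower, at -0.34 (limma adjusted p = 0.031), while 227541_at and 222157_s_at were called higher.

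USP13 fell on 3 of 3 probe sets. The brightest read 5.91, 6.04 and 6.21 in the USP48 arrays, against 6.95, 6.96 and 6.79 in the vector arrays, a difference of -0.85 (SE 0.10, limma adjusted p = 0.00017), 1.80-fold lower. The others were at -0.49, not called without vector replicate 3 (adjusted p = 0.054), and -0.94. Its paralog USP5, the protease that disassembles free ubiquitin chains, was at 0.12 on its only probe set (limma adjusted p = 0.48).

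In many of these decreases USP48 replicate 3 was the USP48 array nearest to the vector arrays. This held for 25 of the 37 USP probe sets that fell (67.6%), against 51.6% of the 7519 probe sets that fell over the whole table. The same array had the lowest GAPDH and ACTB 5′ minus 3′ values, and the part of RNA integrity in the differences was not tested. Without USP48 replicate 3 the number of USP probe sets called lower was 37, of which 34 were also called with all arrays, and 13 were called higher. In that fit 13.2% of all probe sets were called lower and 9.89% higher. The difference of USP7 was then -2.05, that of USP34 -1.56 and that of USP9X -1.45. For each of these genes the array left out was the USP48 array nearest to the vector arrays. A larger decrease than with all arrays therefore follows by arithmetic.

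The brightest probe set was called higher for USP18, USP53, USP36, USP30, USP20, USP45, USP25 and USP4. USP18, which removes ISG15 from proteins and also blocks signalling at the type I interferon receptor, had the largest increase of the family. Its 1 probe set read 8.28, 8.54 and 8.0 in the USP48 arrays, against 6.17, 6.30 and 6.16 in the vector arrays. Every USP48 array was well above every vector array. The difference was 2.07 (SE 0.13, limma adjusted p = 3.0e-06), 4.19-fold higher, and 1.77 after scaling on the hybridization controls (limma adjusted p = 1.9e-07). The ISG15 conjugation genes rose beside it. ISG15 was at 2.81, the conjugating enzyme UBE2L6 at 2.16, the ligase HERC5 at 1.97 and HERC6 at 1.10, each on its brightest probe set. So 4 of 4 measured members were called higher, also after that scaling. Of all genes 14% were called higher by this measure, and 4.64% after that scaling. UBA7, also on the list, was not measured. The dim HERC6 probe set 1563659_at was not called, at 0.40 (limma adjusted p = 0.073).

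USP53, a member associated with tight junctions, read 6.50, 6.29 and 6.98 in the USP48 arrays, against 5.44, 5.38 and 5.63 in the vector arrays. It rose by 1.11 (SE 0.16, limma adjusted p = 0.00045), 2.15-fold higher. Its 3 other probe sets, all dimmer, were at -0.16, 0.18 and 0.01 and were not called. USP36, a nucleolar deubiquitinase, read 7.25, 7.57 and 7.24 in the USP48 arrays, against 6.60, 6.60 and 6.51 in the vector arrays, and rose by 0.79 (SE 0.11, limma adjusted p = 0.00038), 1.72-fold higher. Of its 4 other probe sets, 224979_s_at rose by 0.37 (limma adjusted p = 0.012), but was at 0.08 when scaled on the hybridization controls (adjusted p = 0.59), while the others were at 0.25, 0.12 and 0.06.

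USP30, which sits in the outer mitochondrial membrane and opposes ubiquitination by Parkin, had probe sets called in opposite directions. Probe set 223602_at read 6.88, 6.90 and 6.73 in the USP48 arrays, against 6.33, 6.19 and 6.08 in the vector arrays, and rose by 0.63 (SE 0.10, limma adjusted p = 0.00094). Probe set 227572_at read 3.43, 2.99 and 3.69 in the USP48 arrays, against 4.14, 4.26 and 4.25 in the vector arrays, and fell by 0.84 (SE 0.15, limma adjusted p = 0.0020). Neither probe set had overlapping groups, and both calls held after scaling on the hybridization controls (0.34 and -1.14, limma adjusted p = 0.044 and 7.9e-06). With USP22 it was 1 of 2 USP genes with calls in both directions, 5.71% of the 35 with several probe sets, against 5.56% of all such genes.

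The other increases were smaller, and several depended on single arrays or on the scaling. USP45 read 4.02, 3.85 and 4.15 in the USP48 arrays, against 3.55, 3.53 and 3.64 in the vector arrays, and rose by 0.43 (SE 0.10, limma adjusted p = 0.0095). Its vector values lay below the array medians. The further USP45 probe sets 234132_at and 238057_at, both dim, were at 0.02 and -0.07 and were not called. USP20, which binds the von Hippel-Lindau protein, read 5.71, 5.88 and 6.12 in the USP48 arrays, against 5.42, 5.55 and 5.38 in the vector arrays, and rose by 0.46 (SE 0.12, limma adjusted p = 0.015). The USP20 call was lost without vector replicate 1 or 3 (adjusted p = 0.054 and 0.060). USP25 was at 0.31 and USP4 at 0.27 (limma adjusted p = 0.040 and 0.045), and neither was called with any 1 of the 6 arrays left out (adjusted p up to 0.14 and 0.13). The further probe sets of USP25 lay between -0.10 and 0.34, those of USP4 at 0.13 and 0.17, and none was called. After scaling on the hybridization controls USP45, USP20 and USP25 were at 0.14, 0.16 and 0.02 and not called, and USP4 was at -0.024. USP11, a paralog of USP4, was at -0.07 on its 1 probe set (limma adjusted p = 0.71). The third paralog, USP15, was named by 4 probe sets only together with a microRNA gene and was not a member by the rule.

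**Figure D3:**
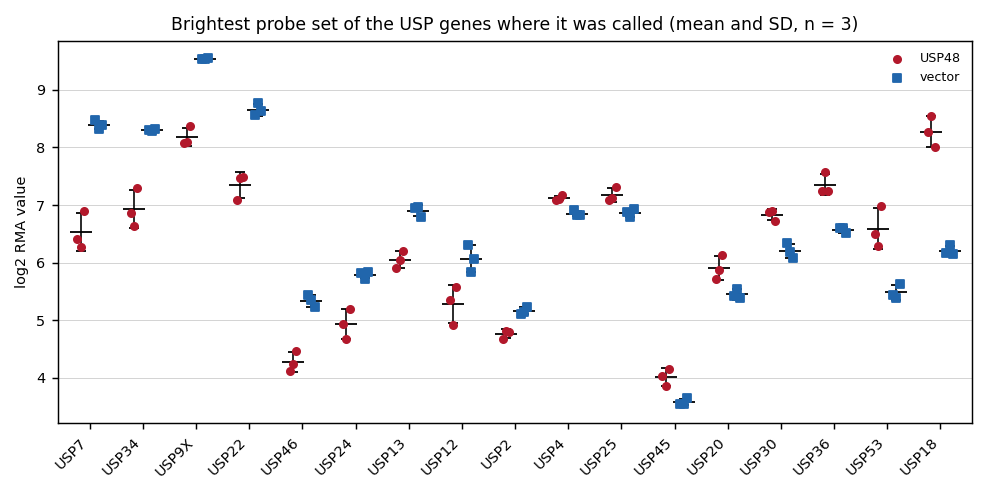
Log2 RMA values (y axis) of the brightest probe set of the 17 USP genes where it was called (x axis, ordered by difference), in the 3 USP48 arrays (circles) and the 3 vector arrays (squares), with the mean and SD of each group. The groups are apart for every gene, from USP7 at -1.86 to USP18 at 2.07; heights of different genes are not comparable, since probe sets differ in brightness.

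To show the regulatory sequence upstream of genes that moved apart, the 250 bases before the annotated start are printed for the USP genes with 1 start in the RefSeq promoter table (GRCh38.p14) whose brightest called probe set was lowest and highest. USP34 lies at chr2:61471088-61471337 on the minus strand and USP22 at chr17:21043012-21043261 on the minus strand. Both of these genes fell. USP53 lies at chr4:119212463-119212712 on the plus strand and USP20 at chr9:129835208-129835457 on the plus strand. Both of these genes rose, USP20 with the limits given above. All run 5′ to 3′ toward the start, and capitals mark matches, on either strand, to the motifs named in the next paragraph.
USP34: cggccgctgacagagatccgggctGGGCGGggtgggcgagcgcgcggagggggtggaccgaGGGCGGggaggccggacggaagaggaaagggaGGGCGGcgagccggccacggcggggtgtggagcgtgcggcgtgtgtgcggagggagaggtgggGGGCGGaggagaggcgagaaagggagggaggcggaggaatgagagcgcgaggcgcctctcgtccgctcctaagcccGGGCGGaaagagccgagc
USP22: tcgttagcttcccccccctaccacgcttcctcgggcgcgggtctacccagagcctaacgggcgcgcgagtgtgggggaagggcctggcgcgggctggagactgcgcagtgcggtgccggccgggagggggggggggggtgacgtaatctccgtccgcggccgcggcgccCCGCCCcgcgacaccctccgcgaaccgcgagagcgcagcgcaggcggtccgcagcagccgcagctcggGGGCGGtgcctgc
USP53: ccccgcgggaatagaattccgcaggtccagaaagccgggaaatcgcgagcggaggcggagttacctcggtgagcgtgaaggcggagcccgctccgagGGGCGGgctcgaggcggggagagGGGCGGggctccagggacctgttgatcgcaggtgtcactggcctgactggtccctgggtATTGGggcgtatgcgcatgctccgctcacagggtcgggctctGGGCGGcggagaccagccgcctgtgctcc
USP20: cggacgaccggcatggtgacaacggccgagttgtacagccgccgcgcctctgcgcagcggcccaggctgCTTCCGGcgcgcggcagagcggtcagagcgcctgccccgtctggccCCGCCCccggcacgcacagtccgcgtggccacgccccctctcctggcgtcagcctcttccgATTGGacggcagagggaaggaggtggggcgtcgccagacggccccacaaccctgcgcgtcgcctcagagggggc

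The 6 motifs searched were spelled AP-1 TGACTCA, CRE TGACGTCA, E-box CACGTG, SP1 GGGCGG, NF-Y CCAAT and ETS CCGGAAG, and both strands were read. The SP1 letters occurred 5 times before USP34, 2 times before USP22, 3 times before USP53 and 1 time before USP20. The NF-Y letters occurred before USP53 and USP20, and the ETS letters before USP20. Over the 47 promoters of the 34 USP genes in the table, 70.2% held the SP1 letters, against 42.6% of all 35116 promoters of the same length, 25.5% held the NF-Y letters, against 32.0%, and 21.3% held the ETS letters, against 8.52%. The SP1 share was 70.0% for the 10 promoters of genes whose brightest probe set fell and 66.7% for the 9 of genes whose brightest probe set rose. The E-box letters were in 4.26% of the USP promoters, against 6.34% of all, and the AP-1 and CRE letters in 0 of 47, against 4.20% and 1.65%. A match describes these letters in this window and is not a binding site.

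A further 14 USP genes had a called probe set although their brightest one was not called. They fall outside the rule for named genes and were named after their values were seen. Lower calls were found for USP3, USP8, USP14, USP28, USP31, USP40, USP47, USP48, USP49 and USP51, and higher calls for USP33, USP37, USP38 and USP42. USP14, which is bound to the proteasome and trims ubiquitin from its substrates, was at -0.01 on its brightest probe set. That probe set read 10.09, 10.06 and 10.10 in the USP48 arrays and 10.14, 10.04 and 10.10 in the vector arrays, so the groups overlapped. On 226567_at, however, it read 5.92, 5.92 and 6.15 in the USP48 arrays, against 7.15, 6.92 and 6.84 in the vector arrays, and fell by 0.97 (limma adjusted p = 0.00011), with 201671_x_at at -0.41 (limma adjusted p = 0.0069). USP8, which acts on receptors at the endosome, was likewise at -0.10 on its brightest probe set. Its other probe set, 229501_s_at, read 4.41, 4.49 and 4.68 in the USP48 arrays, against 5.61, 5.50 and 5.45 in the vector arrays, and fell by 0.99 (limma adjusted p = 5.3e-05).

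Calls outside the brightest probe set were smaller for most of the remaining genes. USP3, a histone H2A deubiquitinase, was at 0.19 on its brightest probe set and fell by 0.64 on 226652_at (limma adjusted p = 0.029). That call was lost without any 1 of the vector arrays (adjusted p up to 0.095). USP31 fell by 0.87 on 227256_at (limma adjusted p = 0.0010), and by 0.58 on 1558117_s_at, the second of which was not called without vector replicate 1 or 2 (adjusted p = 0.070 and 0.055). USP28, a paralog of USP25 that stabilises MYC, fell by 0.48 on 231837_at and was at 0.06 on its brightest probe set. USP47 fell by 0.49 and 0.41 on 2 of 5 probe sets, USP51 by 0.41, USP40 by 0.40 and USP49 by 0.31 on 1 each. Each of these calls was lost in at least 1 of the fits with 1 array left out, with adjusted p up to 0.15 for USP49. USP42 rose by 0.69 on 228982_s_at (limma adjusted p = 0.0025), also when scaled on the hybridization controls (0.40, adjusted p = 0.025). USP33, a paralog of USP20, rose by 0.55 on 214843_s_at, USP38 by 0.49 on 223289_s_at and USP37 by 0.38 on 232033_at, and none of these 3 was called after that scaling (0.26, 0.19 and 0.08).

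The remaining 15 genes had no called probe set (32.6% of the 46). The share over all genes was not worked out for this count, nor for the 14 genes called only outside their brightest probe set. For genes with several probe sets it is given in the next paragraph. The 15 genes were USP1, USP5, USP11, USP16, USP19, USP21, USP26, USP27X, USP29, USP35, USP39, USP43, USP44, USP54 and USP9Y. The differences of the probe sets of these genes other than USP9Y ran from -0.19 to 0.32, and a p that misses the threshold does not show that they were equal between the groups. The brightest probe sets of 4 of the 46 genes lay below every array median.

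Among the 35 genes with several probe sets, 18 had lower calls alone, 9 had higher calls alone, 2 had both and 6 had none. The shares over all genes with several probe sets were 24.4%, 20%, 5.56% and 50%, and such genes had 3.03 probe sets on average, against 3.43 for the USP genes. A gene with more probe sets has more chances of a call.

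Probe sets of 1 USP gene often moved by unequal amounts. Of 85 further probe sets, 38 (44.7%) differed from the brightest of their gene in the limma fit on within-array differences, against 28.2% of the 21316 such probe sets of all genes. They belonged to 21 of the 35 USP genes (60.0%), against 35.8% of all genes with several probe sets. The brightest probe set of a gene sets the comparison, and many further probe sets are near or below the array medians, where a decrease may not register. Among the 52 further USP probe sets whose mean lay above every array median, 22 differed from the brightest (42.3%), against 33.4% of all such probe sets. The following are among these 22 and were named after their values were seen. USP14 226567_at was 0.97 below the brightest probe set (difference -0.97, SE 0.12, limma adjusted p = 0.00025). USP8 229501_s_at was at -0.89 (SE 0.12, limma adjusted p = 0.00029). USP7 201499_s_at, which fell less than the brightest USP7 probe set, was at 1.06 (limma adjusted p = 0.00014). USP34 207365_x_at, which also fell less than the brightest of its gene, was at 0.85 (limma adjusted p = 0.0026). All probe sets of these 4 comparisons were above every array median in both groups. USP30 227572_at was at -1.48 (SE 0.20, limma adjusted p = 0.00035), but its mean in the USP48 arrays, 3.37, was below the array medians.

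**Figure D4:**
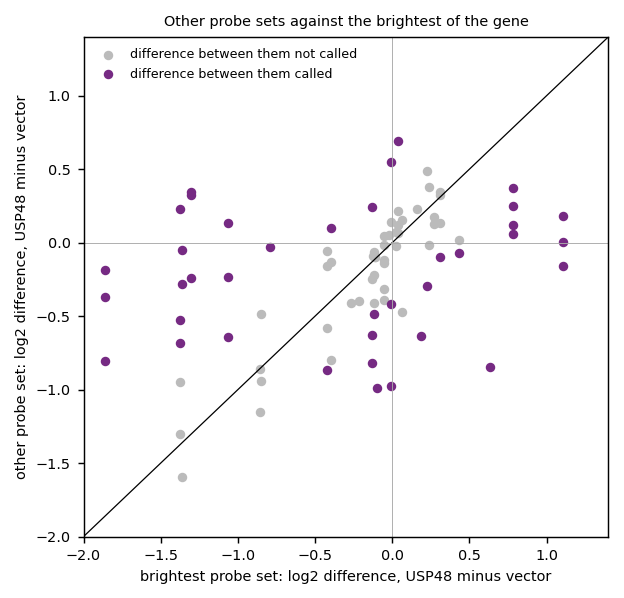
Log2 difference (USP48 minus vector, log2 units) of each further probe set of a USP gene (y axis) against that of the brightest probe set of the same gene (x axis), with points in purple where the within-array difference between them was called and the line of equality. Of the 85 further probe sets, 38 were called, and these lie on both sides of the line; many are near or below the array medians; USP9Y is not drawn.

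The other deubiquitinase families, represented by the brightest probe set of each gene, were mixed as well, against 27.1% of all genes called in either direction. After scaling on the hybridization controls 36.1% of all genes were called lower and 4.64% higher by this measure, and the scaled counts of the lists stand against these shares. Of 14 ovarian tumour (OTU) proteases, 6 rose and 1 fell, with a median difference of 0.28, against 0.05 over all genes. TNFAIP3, the NF-κB inhibitor A20, averaged 8.29 ± 0.12 in the USP48 arrays and 6.10 ± 0.09 in the vector arrays (SD, n = 3 each), a rise of 2.19 (SE 0.10, limma adjusted p = 5.4e-07). It was followed by OTUD1 at 1.10, OTUD3 at -0.62 and VCPIP1 at 0.61. The dimmer VCPIP1 probe set 1556228_a_at was called lower, at -0.58 (limma adjusted p = 0.00057). OTULIN and OTUD7B, also counted as risen, had further probe sets called in both directions. OTULIN 229268_at was at -0.94 and 228382_at at 0.77. OTUD7B 238573_at and 238994_at were at -0.47 and -0.64, and 229488_at and 220031_at at 0.37 and 0.48. The OTUD7B call was lost without vector replicate 1 or 3 or USP48 replicate 1 or 2. That of the dim OTUD7A was lost without vector replicate 1 or 3 or USP48 replicate 1. After scaling on the hybridization controls 2 OTU genes, TNFAIP3 and OTUD1, were higher and 3, OTUD3, OTUD4 and ZRANB1, lower. Of 10 JAMM family genes, which are metalloproteases and their relatives, 2 rose and 2 fell. The rises were STAMBPL1 at 0.82 and STAMBP at 0.79, both endosomal enzymes, and the decreases BRCC3 at -0.62 and MYSM1, a histone H2A deubiquitinase, at -0.61. The dimmer STAMBP probe set 227515_at was called lower, at -0.39 (limma adjusted p = 0.0067). After that scaling 2 of the 10 were higher and 5 lower.

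Of 4 Josephin genes 2 rose, ATXN3 at 0.60 (not called without vector replicate 3) and the dim ATXN3L at 0.50, and neither was called after scaling on the hybridization controls. Of 4 MINDY and ZUP1 genes 2 rose, ZUP1 at 0.71 and MINDY3 at 0.48 (not called after that scaling, at 0.19), and 1 fell, MINDY2 at -0.58, a call lost without vector replicate 1 or 3 or USP48 replicate 1 or 2. The further MINDY2 probe set 226873_at was called lower, at -0.74, and the dim 214691_x_at higher, at 0.42 (limma adjusted p = 0.00038 and 0.025). Of 3 UCH genes UCHL3 rose by 0.54, a call lost after that scaling (0.24, limma adjusted p = 0.12), and UCHL1 was at -0.31, a call that held with USP48 replicate 3 left out but with none of the 5 others. CYLD, a USP relative that trims linear and lysine-linked chains in NF-κB signalling, rose by 0.88 (SE 0.10, limma adjusted p = 0.00012), also when scaled on the hybridization controls (0.59, adjusted p = 0.00099), while PAN2 and USPL1 were at -0.22 and -0.14, and were called lower with that scaling (-0.51 and -0.44, limma adjusted p = 0.0033 and 0.0092). The other CYLD probe sets, all dimmer, lay between -0.25 and 0.15 and were not called as deposited. Of 6 SUMO proteases SENP5 rose by 0.88 and SENP6 fell by 0.45, and with that scaling 1 was higher and 4 lower. The further SENP5 probe set 213184_at was called lower, at -0.64, and 222110_at higher, at 0.38 (limma adjusted p = 0.00068 and 0.022). Among 6 partner subunits ATXN7 and ENY2, which belong to the SAGA module of USP22, rose by 0.57 and 0.45, calls lost after scaling on the hybridization controls, and ATXN7L3 of the same module was at -0.04. The other ATXN7 and ENY2 probe sets lay between -0.22 and -0.02 and were not called as deposited. The partner GMPS was not called on its brightest probe set (-0.11). Its dimmer 229333_at and 236648_at were called lower, at -1.30 and -0.29 (limma adjusted p = 4.1e-05 and 0.033). The ubiquitin gene UBB was at 0.05 and the E1 enzymes UBA1 and UBA6 at -0.12 and -0.08, with 0 of these 3 called as deposited on the brightest probe set. UBA1 and UBA6 were called lower after scaling on the hybridization controls (-0.41 and -0.37). UBA6 probe set 1555441_at was named after its values were seen. So were the further TF, HERC6, WDR48, WDR20, VCPIP1, OTULIN, OTUD7B, STAMBP, MINDY2, CYLD, SENP5, ATXN7, ENY2 and GMPS probe sets above. The UBA6 probe set was called higher, with a mean of 5.0 in the USP48 arrays and 3.27 in the vector arrays. The difference was 1.73 (limma adjusted p = 3.6e-06) and 1.44 after that scaling. The 5 other UBA6 probe sets lay between -0.01 and 0.24 and were not called as deposited.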

How the data were processed

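Biotinylated RNA of 6 samples was read on Affymetrix arrays, per the labels' protocols. The authors deposited log2 values, 1 per probe set and array; the submitters' processing notes name RMA. Its settings and version were not given in the sources used here. RMA equalises signal distributions between arrays, and a shift common to all transcripts would therefore not appear. Values ran from 0.19 to 13.24.

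Gene names came from the platform annotation. Of 54675 probe sets 62 were controls and 41091 named 1 gene. All 46 USP symbols were found among RefSeq symbols (GRCh38.p14). No filter or further normalization was applied. Groups were fitted over all non-control probe sets with limma 3.58.1 (lmFit, eBayes) in R 4.3.3, with no covariate, and checked on simulated data. Figures were drawn with matplotlib 3.10.9. For arrays, their number, 3 per group, limits the precision.

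Named genes are USP48, then USP genes whose brightest probe set was called (up to 12 per direction), then those with opposite calls, and of each other list up to 4 called members. The members, lists and alternatives were chosen with earlier results of these data known, so they are not independent support. Alternatives were quantile normalization, median centring, scaling on the hybridization controls, limma's robust prior with an intensity trend, a filter on the dimmest probe sets, gene-level summaries, leaving out shared-sequence probe sets, a replicate block, each array left out, and stricter thresholds. Promoter sequences are RefSeq's (GRCh38.p14), found for 34 of 46 genes.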

Additional observations from a re-analysis of the deposited data

How the results depend on the processing

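Of the 51 called USP probe sets, 33 kept their direction and their side of the threshold under quantile normalization, median centring, scaling on the hybridization controls, limma's robust prior with an intensity trend, the replicate block, a filter on the dimmest probe sets (where it kept them) and with each array left out. Scaling on the hybridization controls changed most: 74 probe sets were lower and 5 higher, against 37 and 14 as deposited, since it lowers every difference by 0.29, and USP4 turned to -0.024. With that scaling 39% of all probe sets were lower and 3.34% higher. Without _x_at and _s_at probe sets, which leaves 80, 21 were lower and 6 higher, against 13% and 8.44% of all such probe sets. An adjusted p under 0.01 left 28 of 131 lower and 9 higher, against 9.26% and 6.04% of all probe sets. A 1.5-fold limit left 25 lower and 5 higher, against 6.95% and 3.85% of all. Those 5 were probe sets of USP18, USP53, USP36, USP30 and USP42. When each gene was represented by the average over its probe sets, 16 of 46 USP genes were lower and 6 higher, against 9 and 8 by the brightest probe set. The shares of all genes were 13.6% and 13.8% with the average. Leaving out 1 array in turn gave 30 to 37 lower, 10 to 13 higher and 30 to 37 within-gene differences, against 38 with all arrays. The shares of all probe sets in those fits were 10.8% to 13.2% lower and 7.64% to 9.89% higher. Among further probe sets above the array medians, a choice made after seeing the data, 22 of 52 within-gene differences were called. The replicate block gave 36 lower and 13 higher probe sets, against 13.3% and 9.93% of all, and 36 within-gene differences. Deviations of same-numbered arrays correlated at -0.02, 0.11 and -0.02 over probe sets, so the numbers were not taken to pair the samples. With 3 arrays per group and no detection calls, small differences of dim probe sets stay uncertain.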
